A study of Homo sapiens and Mus musculus with 10 samples.

Results

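MHC class II presentation genes encode the molecules with which a cell shows peptides from its endosomes to CD4 T cells. The set held 9 gene symbols, taken by name: CD74, CIITA, HLA-DRA, HLA-DMA, HLA-DMB, IFI30, H2-DMa, H2-Aa and H2-Ab1, matched without regard to case. In the human line MOLM-13, 6 of 27800 listed symbols matched, and in the mouse line ER-Hoxa9, 6 of 24493 symbols matched, since CD74, CIITA and IFI30 have the same name in both species.

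The study asked how inhibition of KAT6A, a histone lysine acetyltransferase, alters the transcripts of acute myeloid leukaemia (AML) cells. RNA sequencing gave 10 libraries. MOLM-13 cells received WM-1119, a small-molecule KAT6A inhibitor, at 4 µM for 4 days (3 libraries), and were set against MOLM-13 cells with DMSO, the vehicle (3 libraries). ER-Hoxa9 cells received WM-1119 at 2 µM for 4 days (2 libraries), and were set against ER-Hoxa9 cells with DMSO (2 libraries). MOLM-13 is an established AML line that carries a KMT2A-MLLT3 fusion. ER-Hoxa9 cells are mouse progenitors held in growth by Hoxa9 joined to the oestrogen receptor's hormone-binding domain, and both of their groups grew in medium with stem cell factor and β-estradiol. The columns of the mouse table carry the line name LysHoxa9 where the sample titles say ER-Hoxa9, so that their line was assumed from the table and their treatment and number were read from the column names. Each line is a single line of its species, and dose differed between the lines. Whether replicates were grown as separate cultures is not stated in the labels, and the p-values therefore rest on a spread between libraries that may be technical in part.

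Values are TPM, transcript abundances scaled for length and to a sum of 1000000 per library, and so they keep no record of sequencing depth. Genes at 1 TPM or more numbered 12112 to 12416 per MOLM-13 library and 11042 to 11446 per ER-Hoxa9 library. Ribosomal protein genes held 25.7% to 39.8% of a MOLM-13 library and 27.6% to 33.7% of an ER-Hoxa9 library, and microRNA entries held 12.8% to 21.7% and 7.23% to 10.7%. Of 8 line identity genes, 7 averaged at least 1 TPM in MOLM-13, with KIT as the exception, and all 8 did so in ER-Hoxa9.

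A class II molecule is an α and a β chain (HLA-DR, HLA-DQ and HLA-DP in humans, H2-A and H2-E in mice). CD74, the invariant chain, holds the groove and guides the pair to endolysosomes, where proteases cut it down to CLIP; DM then exchanges CLIP for peptide, DO restrains DM, and IFI30 (GILT) reduces disulfide bonds of antigens. CIITA is the coactivator that switches these genes on, without touching DNA itself, by docking on RFX, CREB and NF-Y proteins bound at the X and Y boxes of their promoters. B cells, dendritic cells and macrophages carry most class II, and myeloid leukaemia cells often carry some.

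The 6 human genes lie on 4 chromosomes of GRCh38 by GENCODE 29: CD74 on the minus strand at chr5:150401637-150412929, CIITA on the plus strand at chr16:10866222-10943021, and IFI30 on the plus strand at chr19:18173162-18178117. The remaining 3 lie in the class II region, with HLA-DRA on the plus strand at chr6:32439842-32445046, HLA-DMA on the minus strand at chr6:32948613-32969094 and HLA-DMB on the minus strand at chr6:32934629-32941070. Promoter windows were found for 4 of the 6 in RefSeq (GRCh38.p14), for CD74, HLA-DMA, HLA-DMB and IFI30. Stretches of 87 bases are printed to show the promoter letters of the genes whose levels are given next. They run 5′ to 3′ on the gene's strand, with positions counted from the annotated start, and cover -130 to -44 for CD74 (chr5:150412954-150413040, minus strand), HLA-DMA (chr6:32953141-32953227, minus strand) and HLA-DMB (chr6:32941072-32941158, minus strand), and -200 to -114 for IFI30 (chr19:18173613-18173699, plus strand). The annotated starts are those of RefSeq. For HLA-DMA and IFI30 the stretches lie inside the GENCODE spans given above, and bases before any other start of these genes were not searched. Capitals mark letters that match the core of the X box (ACNNNTGA) or of the Y box (ATTGG, which reads CCAAT on the other strand).
CD74: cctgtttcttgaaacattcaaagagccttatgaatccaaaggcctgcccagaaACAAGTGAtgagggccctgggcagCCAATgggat
HLA-DMA: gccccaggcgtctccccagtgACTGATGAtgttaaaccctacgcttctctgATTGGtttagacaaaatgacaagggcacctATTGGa
HLA-DMB: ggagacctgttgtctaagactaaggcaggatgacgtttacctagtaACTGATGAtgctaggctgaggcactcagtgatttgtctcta
IFI30: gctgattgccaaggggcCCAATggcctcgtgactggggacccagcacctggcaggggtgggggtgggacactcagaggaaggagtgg

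Both strands of the 250 bases before each start were searched, with the X box letters chosen after these windows had been seen. An X box core followed by a Y box core stood in CD74 (from -77 and from -53), HLA-DMA (from -109 and from -79) and HLA-DMB (from -84 and, outside the printed stretch, from -22). These Y box cores lay on the gene's strand in HLA-DMA and on the opposite strand, as CCAAT, in CD74 and HLA-DMB. Orientation and spacing thus differed between the genes. IFI30 held a Y box core from -183, also on the opposite strand, and no X box core. Both cores stood in 3 of 4 windows. Because the X box letters were chosen with these windows in view, that count cannot show an excess. Of all 35116 human promoter windows of that length, 8.99% held both. Of those windows 25.3% held the X box core and 32.0% the Y box core. Further matches were a Y box core in HLA-DMA from -49 and an X box core on the opposite strand in CD74 from -210. Among 10 other human class II chains with a window, 5 held both cores. A match describes letters in a window and is no measure of binding.

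In MOLM-13, CD74 and IFI30 averaged 1.78 and 2.03 times as many TPM with WM-1119 as with DMSO. CIITA stood at a ratio of 1.39, HLA-DMA at 1.31 and HLA-DRA at 1.16, while HLA-DMB stood at 0.671. None of the 6 genes passed the test after adjustment over 12436 genes (limma on log2(TPM + 1), Benjamini-Hochberg adjusted p under 0.05). That threshold was passed by 0.00804% of all tested genes in either direction, a single gene, MIR191 (lower), which was named after its value was seen. The values of 5 of the 6 genes were higher on average with WM-1119, with a median log2 difference of 0.36, beside 61.5% positive and a median of 0.05 over all tested genes. CD74 and IFI30 were the 2 genes whose WM-1119 libraries all lay above the DMSO libraries, an arrangement seen in 4.54% of tested genes. At an unadjusted limma p under 0.05, 2 of 6 were higher and 0 lower, beside 2.08% of tested genes higher. LYZ, the lysozyme of monocytes, had 3292, 2894 and 2090 TPM with WM-1119, against 1969, 1465 and 607 TPM with DMSO, again without overlap, and its part in the class II values was not tested. A change in the share of cells of a type and a change in RNA per cell cannot be told apart in these bulk libraries.

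**Figure D1:**
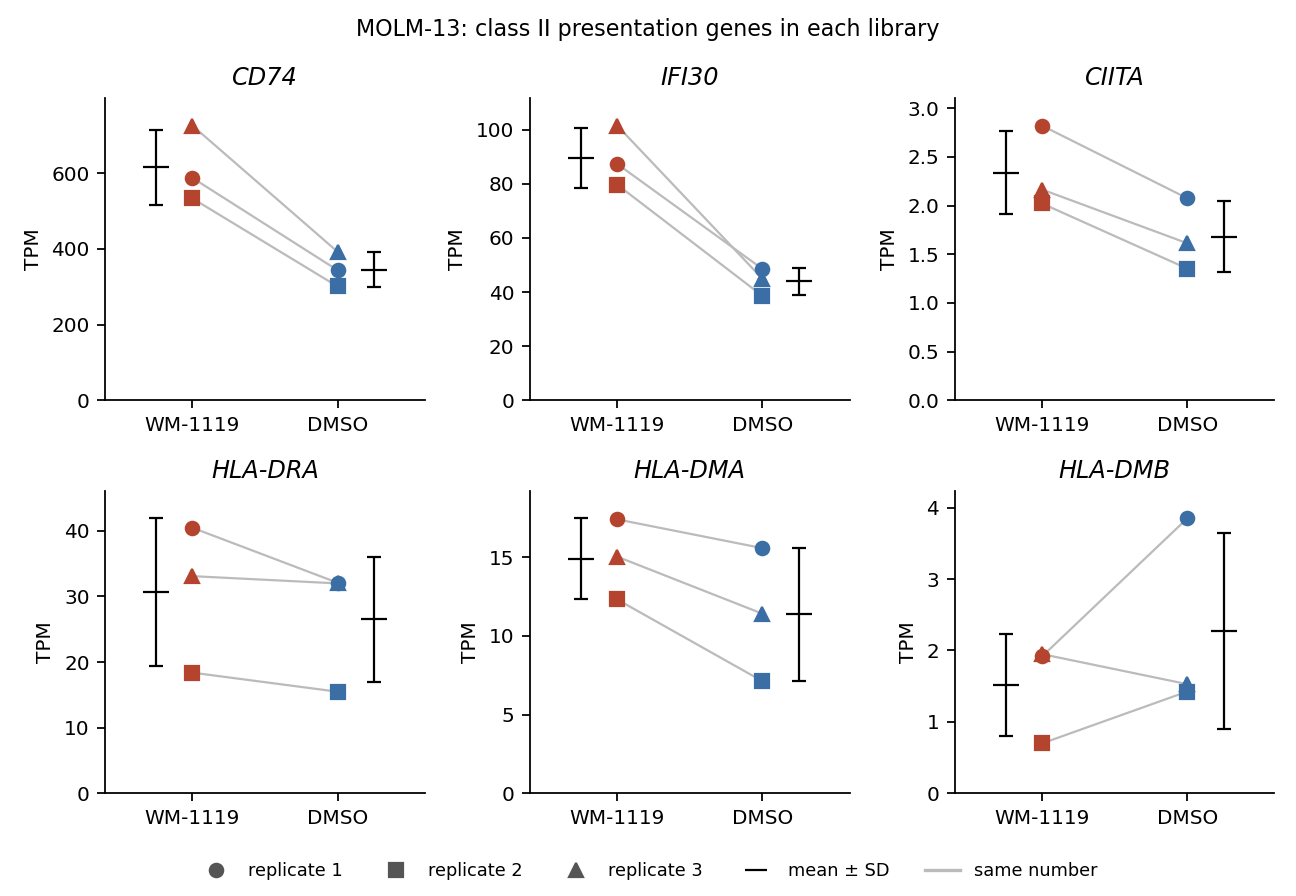
TPM (vertical axes, starting at 0) of the 6 class II presentation genes in the MOLM-13 libraries, WM-1119 left of DMSO. Symbols are libraries by replicate number, grey lines join the same number, and black bars are mean ± SD; for CD74 and IFI30 the 3 WM-1119 libraries sit above the 3 DMSO libraries, and for the other genes the groups overlap.

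CD74 was the most abundant gene of the set, 191st of 27800 symbols by mean TPM. It had 587, 533 and 725 TPM in WM-1119 replicates 1, 2 and 3, against 344, 301 and 392 TPM in DMSO replicates 1, 2 and 3. The lowest WM-1119 library lay above the highest DMSO library, and replicate 3 was the highest of each group. Means were 615 ± 99.0 TPM with WM-1119 and 346 ± 45.8 TPM with DMSO (SD, n = 3 each), a ratio of 1.78. Libraries with the same replicate number gave ratios of 1.71, 1.77 and 1.85. On the log2 scale the difference was 0.83 ± 0.19 (SE; 95% interval 0.37 to 1.28), with a limma adjusted p of 0.910, and ranked 188th from the highest of the 12436. With the replicate number as a block, the SE was 0.064 and the limma adjusted p 0.0956.

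IFI30, the lysosomal thiol reductase, had 87.4, 79.7 and 102 TPM in the WM-1119 libraries, against 48.6, 38.6 and 44.9 TPM in the DMSO libraries. Again no DMSO library reached the lowest WM-1119 library. The mean was 89.5 ± 11.1 TPM with WM-1119 and 44.0 ± 5.04 TPM with DMSO (SD, n = 3 each), a ratio of 2.03. The log2 difference was 1.01 ± 0.19 (SE; 95% interval 0.57 to 1.44), the highest of the set and 123rd of 12436, with a limma adjusted p of 0.586. The block gave an SE of 0.086 and a limma adjusted p of 0.0956. IFI30 and CD74 also followed each other across libraries. Among tested genes that averaged at least 10 TPM, the 5 with the highest Pearson correlation to CD74 on the log2 scale over the 6 libraries were RGS10 (0.99), DLX1 (0.98), IFI30 (0.98), ZNF296 (0.98) and SEMA4A (0.97). These correlations are descriptions, and the libraries on which they rest fall into the WM-1119 and DMSO groups.

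CIITA, the coactivator, was scarce. It had 2.82, 2.02 and 2.16 TPM with WM-1119, against 2.07, 1.35 and 1.61 TPM with DMSO. WM-1119 was higher in each same-numbered pair, by ratios of 1.36, 1.49 and 1.34, but DMSO replicate 1 lay above WM-1119 replicate 2. The log2 difference was 0.32 ± 0.21 (SE; limma adjusted p = 1.00). With the replicate block the SE was 0.13 and the limma adjusted p 0.297. On the scale of log2(TPM + 1), the difference of a gene near 1 TPM is understated.

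HLA-DRA, the α chain of HLA-DR, had 40.5, 18.4 and 33.1 TPM with WM-1119, against 32.1, 15.5 and 32.0 TPM with DMSO. WM-1119 was higher in each same-numbered pair, by ratios of 1.26, 1.19 and 1.03, while the groups overlapped and replicate 2 was the lowest of each. The log2 difference was 0.20 ± 0.38 (SE; limma adjusted p = 1.00), and with the replicate block the SE was 0.082 (limma adjusted p = 0.291). It turned negative without WM-1119 replicate 1 (-0.027) or without DMSO replicate 2 (-0.13), each of which splits a pair, and was 0.14 to 0.28 in the block fits that leave out a whole pair. CD74 exceeded HLA-DRA by 14.5, 29.0 and 21.9 times in the WM-1119 libraries, against 10.7, 19.4 and 12.3 times in the DMSO libraries. The ratio was higher with WM-1119 for each replicate number, while the groups overlapped.

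HLA-DMA and HLA-DMB, the 2 chains of the peptide exchange factor DM, did not share a direction of their means. HLA-DMA had 17.4, 12.3 and 15.0 TPM with WM-1119, against 15.6, 7.12 and 11.4 TPM with DMSO, higher in each same-numbered pair but overlapping. HLA-DMB had 1.92, 0.698 and 1.95 TPM with WM-1119, against 3.85, 1.42 and 1.53 TPM with DMSO, and WM-1119 was higher in 1 of 3 pairs. Log2 differences were 0.41 ± 0.28 for HLA-DMA and -0.34 ± 0.36 for HLA-DMB (SE; limma adjusted p = 1.00 for each). With the replicate block the SE was 0.12 for HLA-DMA (limma adjusted p = 0.220) and 0.23 for HLA-DMB (limma adjusted p = 0.477). Without the block, HLA-DMB stood at -0.019 without DMSO replicate 1, its highest library, and at -0.079 without WM-1119 replicate 2, while HLA-DMA stood at 0.14 without DMSO replicate 2. HLA-DMA exceeded HLA-DMB by 9.09, 17.7 and 7.72 times with WM-1119, against 4.05, 5.0 and 7.47 times with DMSO, so that the lowest WM-1119 ratio lay just above the highest DMSO ratio. These ratios rest on low HLA-DMB values, the 17.7 on 0.698 TPM. How often the ratio of 2 genes separates the groups in this way was not counted. Of the 6 genes, 5 were higher with WM-1119 in every same-numbered pair, as were 28.6% of all tested genes. With the block, 0 of 6 passed after adjustment, as did 0% of all tested genes, and 3 of 6 were higher at an unadjusted limma p under 0.05 (CD74, IFI30 and HLA-DMA), beside 13.2% of all tested genes.

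The other HLA class II chains were low in MOLM-13. Of 12 listed, 3 averaged at least 1 TPM and none passed the limma test. HLA-DQB1 had 4.75, 2.42 and 3.28 TPM with WM-1119, against 3.60, 1.02 and 2.80 TPM with DMSO. HLA-DRB3 had 3.36, 1.47 and 1.35 TPM with WM-1119, against 3.86, 1.09 and 2.24 TPM with DMSO. HLA-DOB, the β chain of the DM inhibitor DO, had 5.83, 4.18 and 5.63 TPM with WM-1119, against 6.65, 4.09 and 6.39 TPM with DMSO. Groups overlapped for each, and the log2 differences were 0.42 ± 0.35 for HLA-DQB1, -0.13 ± 0.38 for HLA-DRB3 and -0.10 ± 0.22 for HLA-DOB (SE). With 1 library left out they ran from 0.07 to 0.66 for HLA-DQB1 (lowest without DMSO replicate 2), from -0.44 to 0.17 for HLA-DRB3 (lowest without DMSO replicate 2, highest without DMSO replicate 1) and from -0.29 to 0.03 for HLA-DOB (lowest without DMSO replicate 2, highest without WM-1119 replicate 2). HLA-DRB1, under the filter, had 0.855, 0.962 and 0.567 TPM with WM-1119, against 0.566, 0.127 and 0.459 TPM with DMSO. HLA-DPA1, HLA-DPB1, HLA-DQA1, HLA-DQA2, HLA-DOA, HLA-DRB4 and HLA-DRB5 averaged under 1 TPM, and HLA-DQB2 was listed at 0 in all 6 libraries. HLA chains are polymorphic and share sequence, so how reads were divided among the DR β and DQ genes is uncertain.

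In ER-Hoxa9, the DM chain H2-DMa averaged 1.37 times as many TPM with WM-1119 as with DMSO, and Ifi30 1.07 times. Cd74, Ciita, H2-Aa and H2-Ab1 averaged under 1 TPM. Only H2-DMa and Ifi30 averaged at least 1 TPM and were tested, and neither passed the limma test after adjustment over 11362 genes. That threshold was passed by 0.0352% of tested genes, namely Apoo-ps and Mir1955 (higher) and Mir7050 and Mirlet7i (lower), named after their values were seen. With the replicate block, 0 of the 2 class II genes passed, as did 0% of tested genes. At an unadjusted limma p under 0.05, 1 of the 2 was higher, beside 11.6% of tested genes. Over all tested genes 71.9% of differences were positive, with a median of 0.12 on the log2 scale, which median-of-ratios scaling moved to -0.0026. A positive difference in this line is read beside that shift.

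H2-DMa, the α chain of DM, was the most abundant mouse gene of the set. It had 29.5 and 30.4 TPM with WM-1119, against 20.7 and 22.9 TPM with DMSO. The groups did not overlap, as for 40.3% of all tested genes with WM-1119 higher. The mean was 29.9 ± 0.675 TPM with WM-1119 and 21.8 ± 1.57 TPM with DMSO (SD, n = 2 each), a ratio of 1.37. The log2 difference was 0.44 ± 0.12 (SE; 95% interval 0.14 to 0.74) with a limma adjusted p of 0.312, and median-of-ratios scaling gave 0.31. Ifi30 had 6.77 and 5.29 TPM with WM-1119, against 6.53 and 4.71 TPM with DMSO. These groups overlapped, with a log2 difference of 0.09 ± 0.21 (SE; limma adjusted p = 0.874) that median-of-ratios scaling turned to -0.025.

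**Figure D2:**
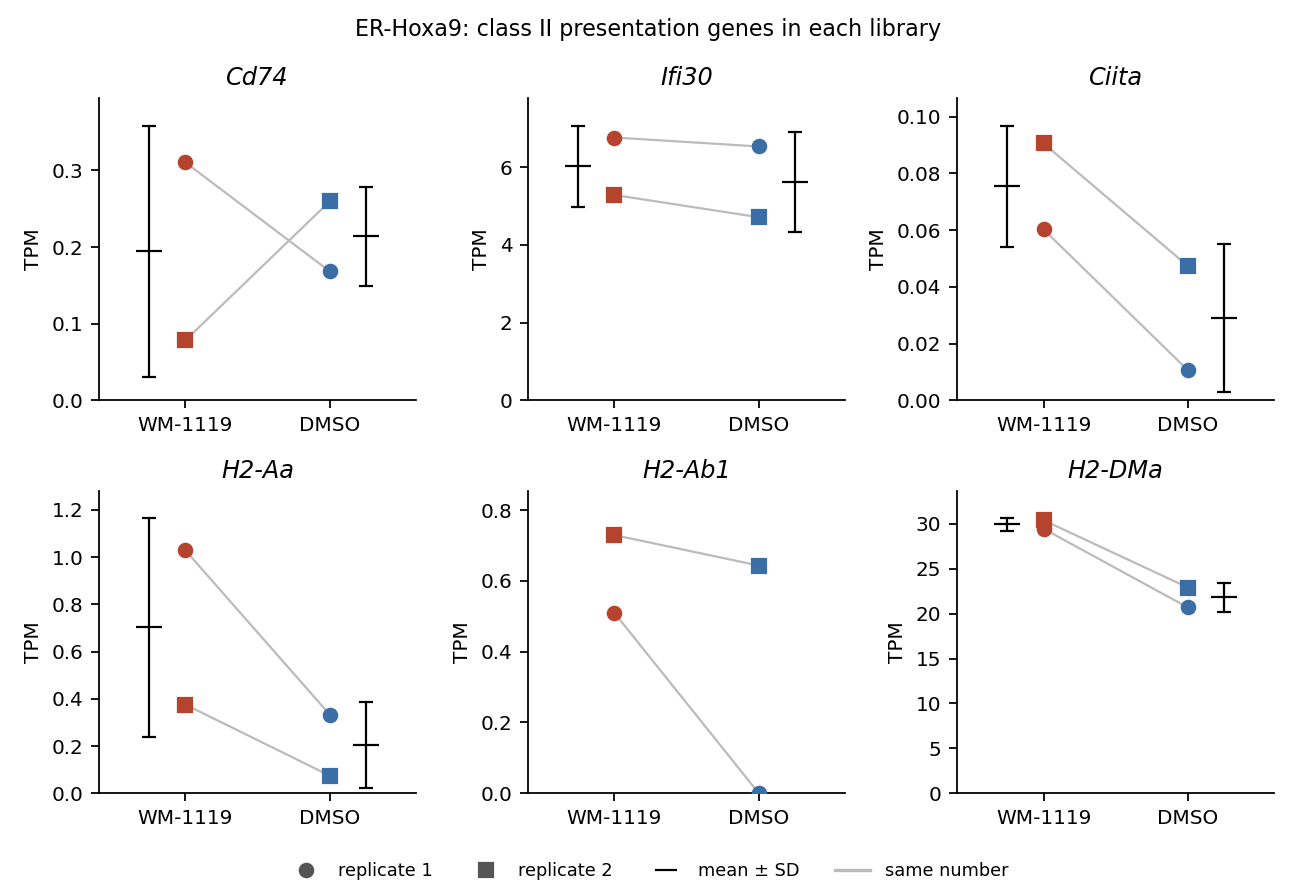
TPM (vertical axes, starting at 0, each with its own range) of the 6 class II presentation genes in the ER-Hoxa9 libraries, WM-1119 left of DMSO. Symbols are libraries by replicate number, grey lines join the same number and black bars are mean ± SD, left out for H2-Ab1, which was listed at 0 in 1 library; only H2-DMa and Ifi30 exceed 2 TPM.

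The invariant chain and the classical chains were under the filter. Cd74, whose human counterpart was the most abundant of the set in MOLM-13, had 0.310 and 0.0785 TPM with WM-1119, against 0.168 and 0.260 TPM with DMSO. Ciita had 0.0603 and 0.0906 TPM with WM-1119, against 0.0107 and 0.0474 TPM with DMSO. Cd74 overlapped between the groups while Ciita did not, both far below 1 TPM. H2-Aa, the α chain of H2-A, had 1.03 and 0.375 TPM with WM-1119, against 0.333 and 0.0746 TPM with DMSO. H2-Ab1, its β chain, had 0.509 and 0.729 TPM with WM-1119, against 0 and 0.643 TPM with DMSO. H2-Aa did not overlap and H2-Ab1 did, and none of these 4 genes was tested. Ciita and H2-Aa had both WM-1119 libraries above both DMSO libraries, as did 40.3% of tested genes of this line. The share among genes under the filter was not counted.

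The DM and DO chains outside the set had higher mean values with WM-1119 in this line. So did the summed markers of each cell type given at the end, though the T and NK cell sums overlapped between the groups. Of the T and NK cell markers, 2 averaged at least 1 TPM. Cd3d was lower, with 5.51 and 5.33 TPM with WM-1119, against 7.37 and 6.76 TPM with DMSO. Nkg7 was higher on average, with 7.11 and 9.90 TPM with WM-1119, against 1.59 and 9.36 TPM with DMSO. The line identity genes summed to 3362 to 3567 TPM with WM-1119, against 1713 to 3016 TPM with DMSO. Over all tested genes of this line 71.9% of differences were positive, and the part of these markers was not tested. H2-DMb1, a β chain of DM, had 48.5 and 37.2 TPM with WM-1119, against 25.0 and 25.5 TPM with DMSO. H2-DMb2, its near copy, had 4.13 and 6.36 TPM with WM-1119, against 1.80 and 2.37 TPM with DMSO. Neither overlapped, with WM-1119 above DMSO as for 40.3% of tested genes of this line, and because the 2 genes are alike, how reads were divided between them is uncertain. H2-Oa, the α chain of DO, had 7.16 and 7.80 TPM with WM-1119, against 1.16 and 3.14 TPM with DMSO. H2-Ob, the β chain of DO, had 6.70 and 8.26 TPM with WM-1119, against 3.91 and 7.05 TPM with DMSO. H2-Oa did not overlap between the groups, with WM-1119 above DMSO as for 40.3% of tested genes, and H2-Ob did.

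None of these 4 passed the limma test after adjustment. Log2 differences were 0.73 ± 0.16 for H2-DMb1 (SE; limma adjusted p = 0.305) and 1.00 ± 0.24 for H2-DMb2 (limma adjusted p = 0.309). They were 1.50 ± 0.33 for H2-Oa (limma adjusted p = 0.305), the 54th highest of 11362, and 0.43 ± 0.27 for H2-Ob (limma adjusted p = 0.544). H2-Ob ran from 0.07 without DMSO replicate 1, its lowest library, to 0.78 without DMSO replicate 2. All 4 were positive under median-of-ratios scaling, quantile normalization, and removal of microRNA entries or ribosomal protein genes. The shares of all tested genes with a positive difference were then 49.5%, 45.3%, 71.7% and 60.5%, in that order. H2-DMb1 exceeded H2-DMa by 1.65 and 1.22 times with WM-1119, against 1.21 and 1.11 times with DMSO. H2-Eb2 lay at or under 0.244 TPM, and H2-Eb1 and H2-Ea-ps were listed at 0 in all 4 libraries.

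**Figure D3:**
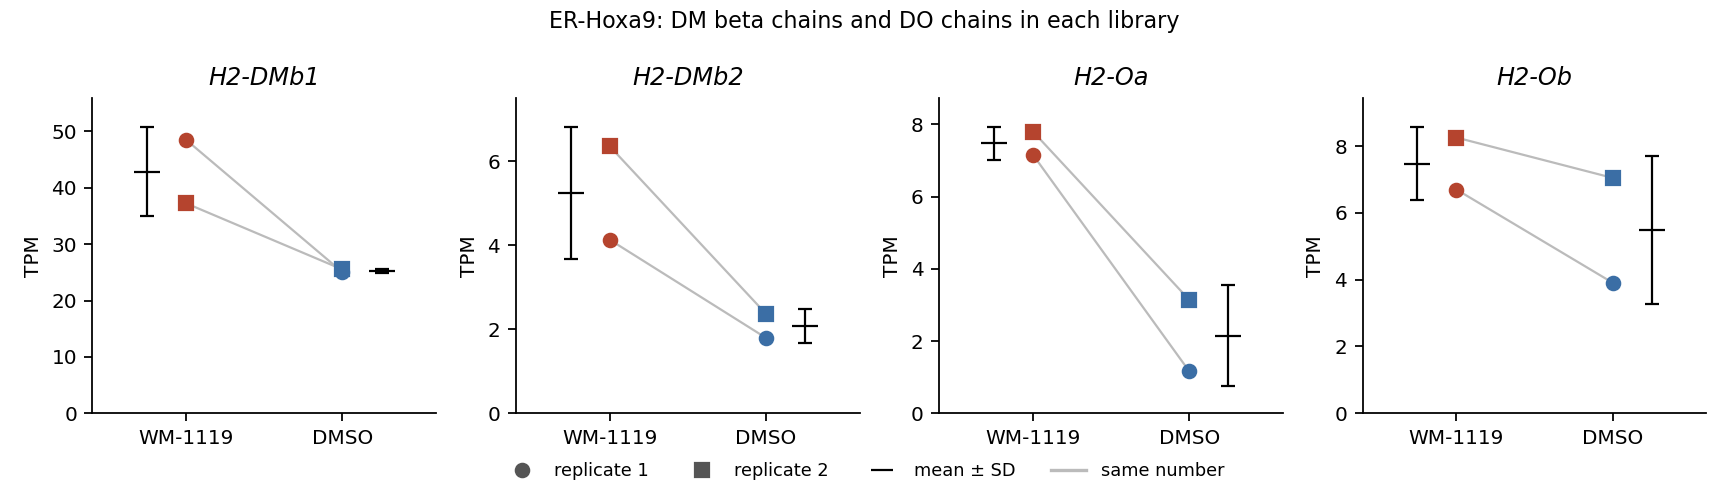
TPM (vertical axes, starting at 0, each with its own range) of the DM β chains H2-DMb1 and H2-DMb2 and of the DO chains H2-Oa and H2-Ob in the ER-Hoxa9 libraries, WM-1119 left of DMSO. Symbols are libraries by replicate number, grey lines join the same number and black bars are mean ± SD (n = 2 each); H2-Ob is the one whose groups overlap.

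**Figure D4:**
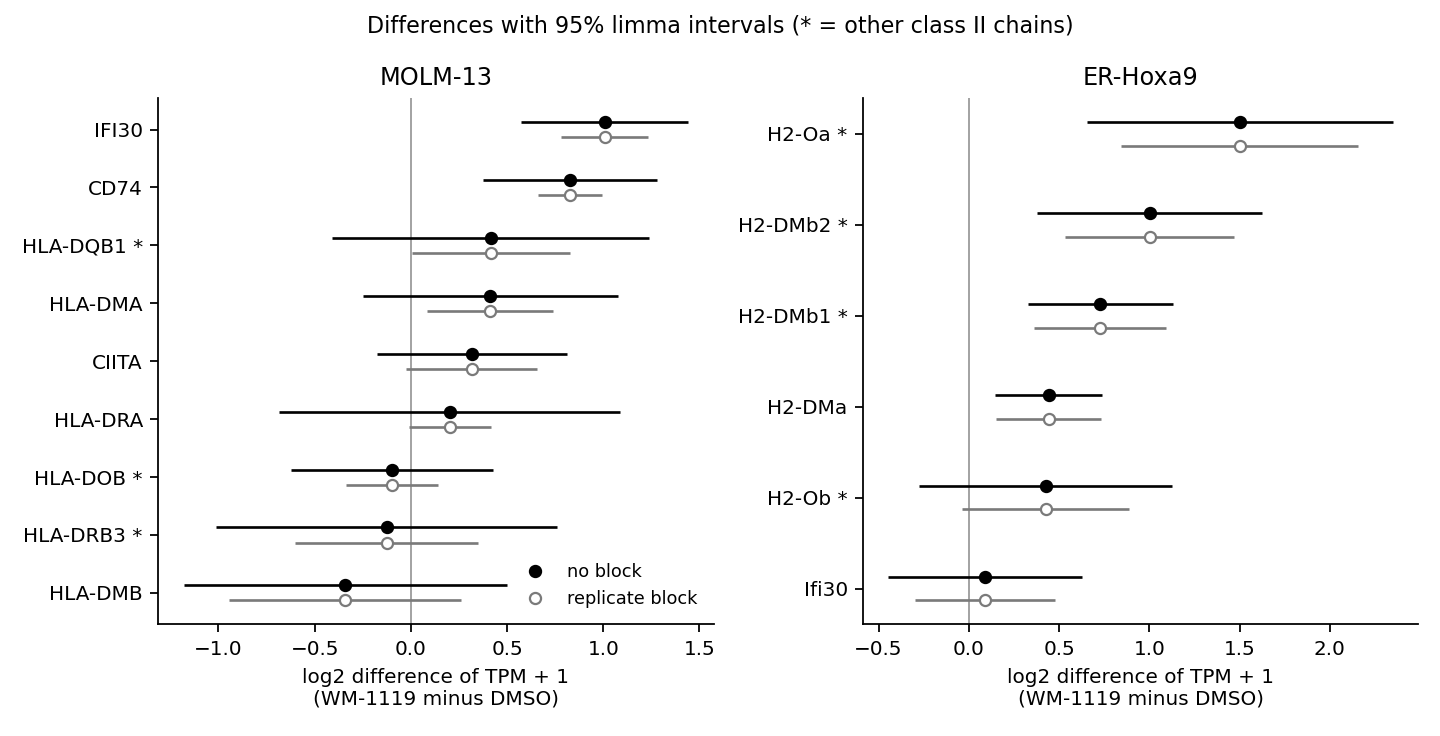
Log2 differences of TPM + 1 (horizontal axes, WM-1119 minus DMSO) with 95% limma intervals for the tested class II genes, without the replicate block (filled) and with it (open); asterisks mark chains outside the set. IFI30 and CD74 in MOLM-13 and H2-Oa, H2-DMb2, H2-DMb1 and H2-DMa in ER-Hoxa9 have intervals above 0 in both fits, before any adjustment for the number of genes, and HLA-DMA and HLA-DQB1 in MOLM-13 only with the block; the lines are separate fits.

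The other genes of the pathway were counted by role, from lists of known biology chosen with earlier results of these data known, and none of them passed the limma test after adjustment in either line. Factors that work with CIITA at class II promoters (RFX, NF-Y, CREB1 and ZXDC) had 5 of 8 positive differences in MOLM-13, with a median of 0.02, and 6 of 8 in ER-Hoxa9, with a median of 0.12. Over all tested genes, 61.5% of differences were positive in MOLM-13 (median 0.05) and 71.9% in ER-Hoxa9 (median 0.12). Median-of-ratios scaling left 3 of 8 and 4 of 8 of these factors positive, beside 47.7% of all tested genes in MOLM-13 and 49.5% in ER-Hoxa9. The most abundant were RFXANK, a subunit of RFX, with 69.6, 61.8 and 81.7 TPM with WM-1119, against 65.3, 74.5 and 81.0 TPM with DMSO, and the mouse NF-Y subunit Nfya, with 53.7 and 52.3 TPM with WM-1119, against 47.1 and 45.6 TPM with DMSO.

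Genes of the interferon-γ route to CIITA had 7 of 8 positive differences in MOLM-13 (median 0.16) and 8 of 8 in ER-Hoxa9 (median 0.27), with 6 of 8 positive in ER-Hoxa9 after median-of-ratios scaling. Over all tested genes the shares were 61.5% and 71.9% without that scaling, and 49.5% in ER-Hoxa9 with it. IFNGR2, a chain of the interferon-γ receptor, had 49.3, 62.4 and 55.2 TPM with WM-1119, against 35.8, 61.7 and 38.3 TPM with DMSO. Ifngr1, its partner chain, had 60.4 and 65.8 TPM with WM-1119, against 40.6 and 54.5 TPM with DMSO. IFNGR2 overlapped between the groups in MOLM-13, and Ifngr1 in ER-Hoxa9 lay above DMSO in both WM-1119 libraries, as did 40.3% of tested genes. SOCS1, an inhibitor of the route, was the gene with a negative difference in MOLM-13, at -0.58 on the log2 scale. In ER-Hoxa9 this inhibitor is counted among the positive differences, at 0.23.

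Endolysosomal proteases and their inhibitor cystatin C had 6 of 7 positive differences in MOLM-13 (median 0.22) and 6 of 6 in ER-Hoxa9 (median 0.41, with 5 of 6 after quantile normalization). All tested genes of the lines had 61.5% and 71.9% positive, and those of ER-Hoxa9 had 45.3% positive after quantile normalization. CST3, which encodes cystatin C, had 1079, 802 and 990 TPM with WM-1119, against 737, 501 and 394 TPM with DMSO. Every WM-1119 library lay above every DMSO library, as for 4.54% of tested genes, and the log2 difference was 0.85 ± 0.26 (SE; limma adjusted p = 1.00). With the replicate block the SE for CST3 was 0.17 and the limma adjusted p 0.159. Ctsd, cathepsin D, was the most abundant in ER-Hoxa9, with 492 and 384 TPM with WM-1119, against 377 and 358 TPM with DMSO. CTSS, the cathepsin known for cutting the invariant chain in antigen-presenting cells, had 47.8, 37.4 and 40.9 TPM with WM-1119, against 34.4, 32.7 and 31.8 TPM with DMSO. CTSS did not overlap in MOLM-13, with WM-1119 above DMSO as for 4.54% of tested genes, while Ctss averaged under 1 TPM in ER-Hoxa9.

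Genes of class II turnover and co-stimulation had 2 of 5 positive differences in MOLM-13 (median -0.01) and 1 of 2 in ER-Hoxa9 (median -0.12, with 0 of 2 positive after median-of-ratios scaling). ICOSLG, a ligand for ICOS on T cells, had 33.5, 31.1 and 35.5 TPM with WM-1119, against 32.1, 36.9 and 35.2 TPM with DMSO. March8, a ubiquitin ligase, had 16.3 and 16.2 TPM with WM-1119, against 24.0 and 16.4 TPM with DMSO. ICOSLG overlapped between the groups, and DMSO replicate 1 stood apart as the high March8 library. Regulators of CIITA in myeloid and lymphoid cells had 4 of 4 positive differences in MOLM-13 (median 0.15) and 2 of 3 in ER-Hoxa9 (median 0.56). Both lists sit beside 61.5% positive in MOLM-13 and 71.9% in ER-Hoxa9 over all tested genes. In ER-Hoxa9 that share was 49.5% after median-of-ratios scaling. Spi1, which encodes the myeloid factor PU.1, had 149 and 112 TPM with WM-1119, against 85.6 and 89.8 TPM with DMSO in ER-Hoxa9. SPI1 had 271, 280 and 320 TPM with WM-1119, against 263, 252 and 248 TPM with DMSO in MOLM-13. Every WM-1119 library lay above every DMSO library in both lines, as for 4.54% of tested genes in MOLM-13 and 40.3% in ER-Hoxa9.

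**Figure D5:**
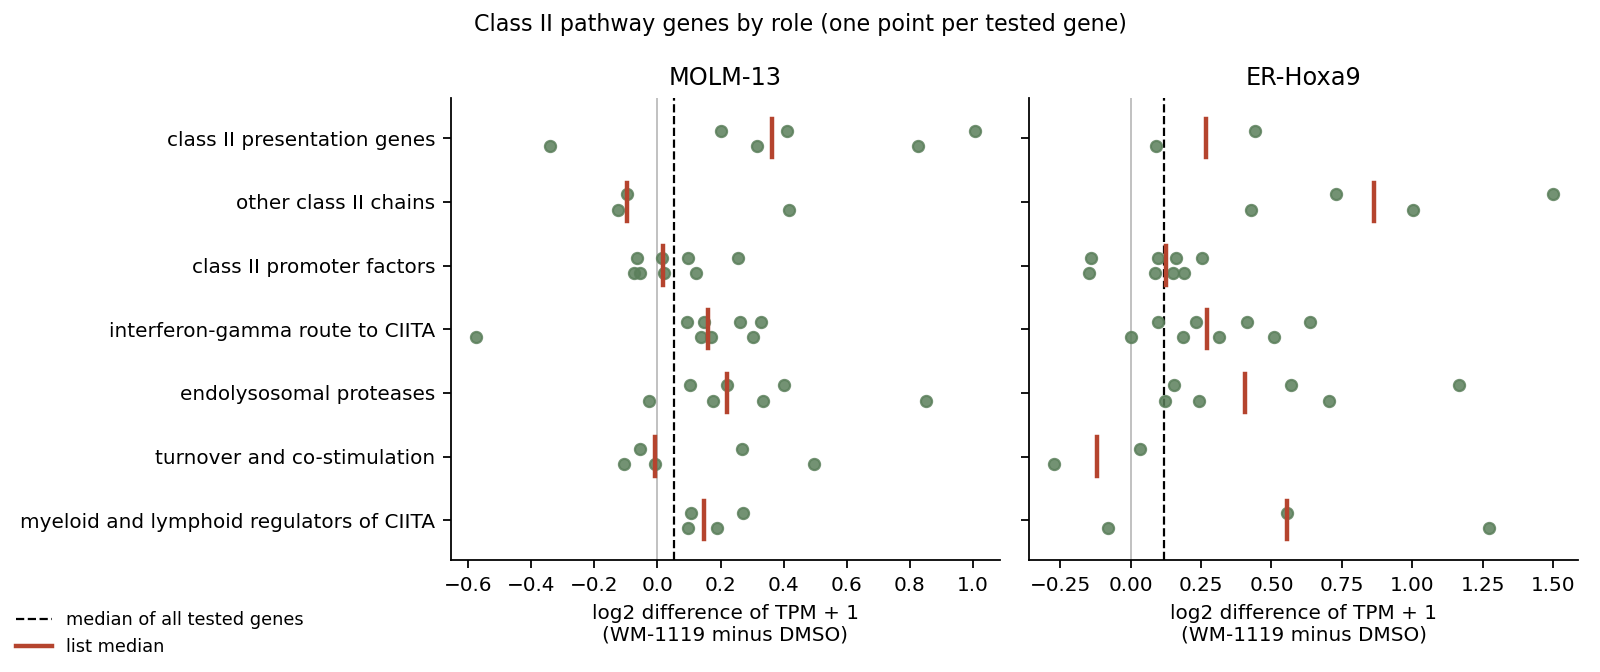
Log2 differences of TPM + 1 (horizontal axes, WM-1119 minus DMSO) of each tested class II pathway gene by role, with the list median in red and the median of all tested genes dashed (0.05 in MOLM-13 and 0.12 in ER-Hoxa9). The class II presentation genes have a median of 0.36 over 6 genes in MOLM-13, and the other class II chains a median of 0.86 over 4 genes in ER-Hoxa9.

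Markers of other blood cells were summed per library to show what the class II values sit beside. Monocyte and macrophage markers (9 listed in each line) summed to 2320 to 3523 TPM with WM-1119, against 787 to 2154 TPM with DMSO in MOLM-13, mostly LYZ. In ER-Hoxa9 they summed to 36.5 to 51.8 TPM with WM-1119, against 25.7 to 27.5 TPM with DMSO, with Lyz2 listed at 0. In both lines the WM-1119 sums lay above the DMSO sums. B cell markers (8 listed) summed to 49.5 to 56.8 TPM with WM-1119, against 21.0 to 32.7 TPM with DMSO in ER-Hoxa9, from Cd79a and Cd79b, while Ms4a1 and Blk were listed at 0. In MOLM-13 they summed to 2.61 to 3.60 TPM with WM-1119, against 2.52 to 4.08 TPM with DMSO, with MS4A1 listed at 0. Dendritic cell markers summed to 108 to 174 TPM with WM-1119, against 117 to 255 TPM with DMSO in MOLM-13 (11 listed), and to 18.2 to 26.7 TPM with WM-1119, against 16.0 to 16.2 TPM with DMSO in ER-Hoxa9 (10 listed). T and NK cell markers (7 listed) summed to 127 to 147 TPM with WM-1119, against 92.5 to 162 TPM with DMSO in MOLM-13, and to 13.5 to 16.5 TPM with WM-1119, against 10.2 to 16.9 TPM with DMSO in ER-Hoxa9. The part of any of these cell types in the class II values was not tested.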

How the data were processed

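RNA-seq values were read from 1 deposited table per line, which gives TPM per gene symbol. The submitters' processing notes name Salmon as the tool with which the authors made these TPM and list the builds hg38 and mm10; its version is not given in the sources used here, nor is the annotation. RNA was extracted on columns and libraries were made by a company, per the labels' protocols, and strandedness is not stated. Estimated TPM hold no counts, so no interval for counting error could be given, and precision rests on the spread between libraries. Columns were matched to samples by treatment and replicate number within each line's table; the mouse columns are headed LysHoxa9, and their match to the ER-Hoxa9 samples was assumed. No column was left without a sample.

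Each line was fitted alone with limma 3.58.1 in R 4.3.3 (lmFit, eBayes with trend, two-sided) on log2(TPM + 1) of genes that averaged at least 1 TPM, with Benjamini-Hochberg adjustment over all of them and a threshold of 0.05. The scripts were tested on simulated data. Figures used Python 3.11.15 and matplotlib 3.10.9. Same-numbered WM-1119 and DMSO libraries of MOLM-13 deviated together from their group means (correlations of 0.52, 0.44 and 0.61, each over 0.1), so the numbers were taken to pair these samples. That pairing comes from the data, since the labels give only the numbers. The main fit carried no block, and the replicate block fit is the one that uses the pairs. Alternatives were a pseudocount of 0.1, no filter, a filter at 5 TPM, median-of-ratios scaling, quantile normalization, removal of microRNA entries or of ribosomal protein genes, the replicate block, and leaving out each replicate. The text names every gene of the set, the other class II chains, the most abundant gene of each list and the 5 genes most correlated with CD74; genes named beyond this rule (such as SOCS1, CTSS and the marker genes) were chosen after their values were seen. The genes and lists were chosen with earlier results of these data known. Sequences are from RefSeq; mouse sequences were not used here.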

Additional observations from a re-analysis of the deposited data

Results flagged for a closer look

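CD80, a co-stimulatory ligand on antigen-presenting cells, lay on opposite sides in the lines, 1 of 77 listed symbols shared by both tables to do so without overlap between the groups. In MOLM-13 it had 0.193, 0.364 and 0.441 TPM with WM-1119, against 0.526, 1.12 and 1.09 TPM with DMSO, a ratio of means of 0.365. In ER-Hoxa9 Cd80 had 1.28 and 1.04 TPM with WM-1119, against 0.111 and 0.0411 TPM with DMSO, a ratio of means of 15.3. In ER-Hoxa9, 40.3% of tested genes had every WM-1119 library above every DMSO library. The share of MOLM-13 genes lower without overlap was not counted. CD80 and Cd80 lie under the filter in their lines, the doses differ, and the difference between the lines was not tested.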

How the results depend on the processing

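No class II presentation gene was called in any of the 30 settings (18 in MOLM-13 and 12 in ER-Hoxa9), and the smallest limma adjusted p was 0.0778, for CD74 with the replicate block and median-of-ratios scaling, an alternative chosen after seeing the data. Of 130 single-gene alternatives over 8 tested genes, 124 kept their direction and 6 turned it. HLA-DRA reached -0.027 without WM-1119 replicate 1 and -0.13 without DMSO replicate 2, in a range of -0.13 to 0.52 with 1 replicate left out. Ifi30 in ER-Hoxa9 reached -0.025 with median-of-ratios scaling, -0.11 with quantile normalization, -0.062 without WM-1119 replicate 1 and -0.11 without DMSO replicate 2, in a range of -0.11 to 0.29 with 1 replicate left out. For both, the cause was not tested. In the block fits without a whole pair, HLA-DRA was 0.14 to 0.28. Among the other class II chains, HLA-DRB3 and HLA-DOB changed sign with 1 library left out, and HLA-DQB1 and H2-Ob kept theirs. Genes called lower in MOLM-13 numbered 1, and 0 without the filter, with the replicate block, with the block and any 1 pair left out, and with median-of-ratios scaling added to the block; leaving out 1 replicate gave 0 to 5 called lower and 0 to 1 called higher, where the full fit called 0 higher. With the block, 1645 genes were higher and 611 lower at an unadjusted limma p under 0.05, against 259 and 120 without it, and 1104 and 1139 after median-of-ratios scaling. In ER-Hoxa9, 2 genes were called higher and 2 lower, and 0 and 0 with a pseudocount of 0.1, no filter, a filter at 5 TPM, the replicate block, or any 1 replicate left out (0 to 0). The number called higher was 1 with median-of-ratios scaling, quantile normalization or microRNA entries removed. Unadjusted counts were 1322 higher and 128 lower, against 735 and 410 with median-of-ratios scaling. Of all tested genes 71.9% were positive, against 67.7% without the filter, 49.5% with median-of-ratios scaling and 45.3% with quantile normalization. Positive class II presentation genes there numbered 2, and 5 of 6 without the filter, 1 with median-of-ratios scaling or quantile normalization, and 1 to 2 with 1 replicate left out. Same-numbered ER-Hoxa9 libraries had a correlation of deviations of 0.21 over 2 pairs, also over 0.1. With 2 libraries per group both pairs hold the same value, so no pairing was read from it and the block there joins only numbers. That block left no class II presentation gene called, as in MOLM-13. Depth is unknown, genes under 1 TPM rest on values too low to compare, and leaving out 1 of 2 ER-Hoxa9 libraries assumes that the lone sample varies like the other group.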
